A study of Chlorella sp. HS2 with 12 samples.

Results

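Chlorophyll a-b binding proteins are the antenna of photosynthesis in green algae and plants. They hold chlorophyll a, chlorophyll b and carotenoids in the thylakoid membrane and pass absorbed light energy to the photosystem reaction centres. The main antenna of photosystem II, light-harvesting complex II (LHCII), is a trimer encoded by a family of similar nuclear genes, and its amount is adjusted to light and nutrient supply.

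The results concern 5 assembled LHCII-type genes of the single-celled green alga Chlorella sp. HS2, out of 57640 genes in the count table and 27 genes with a chlorophyll a-b binding name. They are TRINITY_DN2252_c0_g1 and TRINITY_DN2252_c0_g2, and TRINITY_DN546_c0_g2, TRINITY_DN546_c0_g9 and TRINITY_DN546_c0_g10, written below without the prefix. The reads were assembled de novo with Trinity, where a component, such as DN2252_c0, gathers sequences that share stretches, and genes of 1 component can be copies, alleles or fragments of the same gene. The 5 copies were chosen by their levels in these same 12 libraries, because different copies of a component were high in different groups. Their levels, shares and fold changes are therefore given as a description, with no test. The copies of a component share sequence, so they are not independent of each other.

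Cultures grew autotrophically in photobioreactors with added CO2. Marine cultures had inorganic medium with 3% (w/v) sea salt, and freshwater cultures had inorganic medium without it. Samples were taken 6 days after inoculation, in stationary phase, and 4 days after inoculation, in exponential phase. This gave 4 groups of 3 libraries of poly(A)-selected RNA, namely marine stationary, marine exponential, freshwater stationary and freshwater exponential. The 2 phases differ in culture age as well as in growth, and these cannot be told apart.

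Library totals ran from 9378066 to 11280635 estimated counts. Every one of 135148 values below 50 was a whole multiple, within 0.06 of a step, of the amount worth 0.01 TPM (a length-adjusted share of transcripts) in its library. The deposited counts thus have the form of TPM values scaled to library totals, which are already divided by transcript length. Levels below are CPM, these values as counts per 1e6 of the library after TMM scaling. They can be compared between genes as levels per length, with less certainty for very short sequences. They are not numbers of reads, and the reads behind a low value are unknown. The antenna fragments DN546_c0_g4 and DN546_c0_g6, of 212 and 214 bases, were each listed at 0 in some libraries and at 59.1 CPM or more in all others. In these whole-culture samples fewer cells with a transcript and less of it per cell cannot be told apart.

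The alga's own markers were present in every group, with 51 to 56 of 59 antenna, photosystem, Rubisco small subunit and protochlorophyllide reductase genes detected. Their summed level ran from 6131.8 to 8073.0 CPM in marine stationary, from 4428.9 to 4938.2 in marine exponential, from 4997.8 to 7884.1 in freshwater stationary and from 135433.4 to 153748.6 CPM in freshwater exponential libraries, and the list holds the 5 copies and the other antenna genes. Bacterial markers, 9 genes, summed to at most 40.7 CPM, reached in a marine stationary library, and to at most 1.82 CPM in freshwater libraries. Animal markers, 6 genes, summed to at most 7.74 CPM. The only matches to the fungal list were 2 chitin synthase genes with best hits to fungi, which summed to 102 to 537 CPM and were detected in every group. Whether these 2 genes are of fungal or algal origin was not tested. The part of bacterial, animal or fungal RNA in the antenna values was not tested either. The library codes of the 3 marine exponential libraries share a stem, as do those of marine stationary replicates 1 and 2. Median absolute log2 differences within these pairs were 0.0661 to 0.0979, against 0.174 to 0.427 for all other replicate pairs, the highest 2 being those of marine stationary replicate 3. If libraries with a shared stem came from 1 culture, the marine spread below is in part technical.

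Component DN2252_c0 had 2 copies with opposite order over the groups. DN2252_c0_g1, whose best hit is an LHCII type I protein of the green alga Dunaliella tertiolecta, stood at 2403.0, 4733.3 and 4247.5 CPM in freshwater stationary libraries. It stood at 1.37, 2.39 and 0.243 CPM in marine stationary, at 2.35, 2.16 and 3.91 CPM in marine exponential and at 1.67, 2.52 and 1.49 CPM in freshwater exponential libraries. Every freshwater stationary library was thus far above every other library, and the other 3 groups lay at a few CPM and overlapped in part, with marine stationary replicate 3 lowest.

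DN2252_c0_g2, placed by the deposited annotation in the KEGG group of LHCII protein 2, had the highest mean level of all 27 antenna genes in both marine groups and in freshwater exponential libraries. It stood at 1448.4, 1451.3 and 2495.9 CPM in marine stationary and at 1508.7, 1332.4 and 1509.3 CPM in marine exponential libraries. It stood at 134, 63.1 and 178 CPM in freshwater stationary and at 68368.0, 58370.6 and 68918.4 CPM in freshwater exponential libraries. Both marine groups overlapped, freshwater stationary libraries were all lower, and freshwater exponential libraries were all higher, where this 1 gene held 4.85% ± 0.521 of all estimated counts (SD, n = 3).

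**Figure D1:**
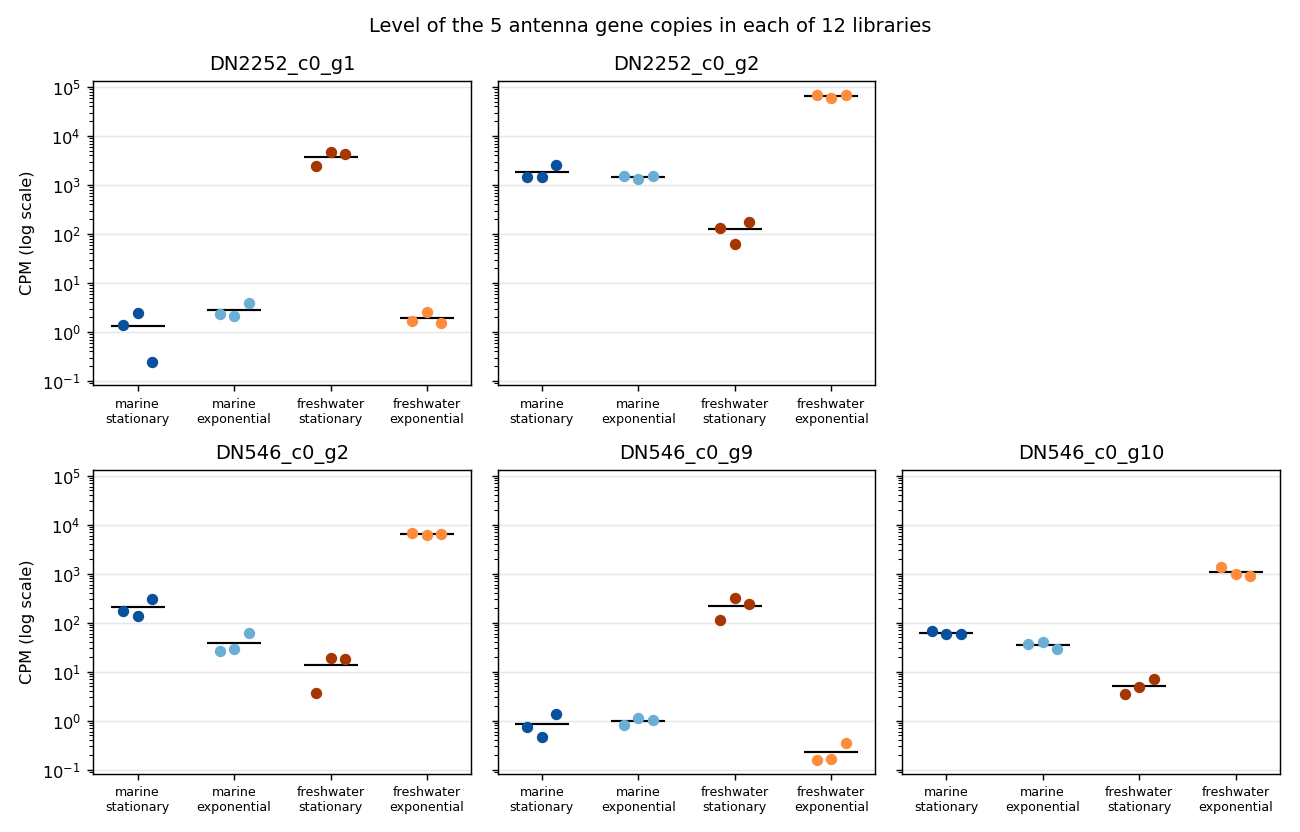
Level of each of the 5 antenna gene copies in CPM (log scale) in marine stationary, marine exponential, freshwater stationary and freshwater exponential libraries. Each point is 1 library and each bar the mean of 3; DN2252_c0_g1 and DN546_c0_g9 are high in freshwater stationary libraries, and the other 3 copies are highest in freshwater exponential and lowest in freshwater stationary libraries.

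Within DN2252_c0, 1 copy took nearly all of the signal in each group, and which copy it was differed. DN2252_c0_g1 held 96.3% ± 2.09 of the component's estimated counts in freshwater stationary libraries, but 0.0782% ± 0.0675 in marine stationary, 0.185% ± 0.0563 in marine exponential and 0.00291% ± 0.00114 in freshwater exponential libraries (SD, n = 3 each). DN2252_c0_g2 held 87.4% ± 0.239 in marine stationary, 96.0% ± 0.367 in marine exponential, 3.53% ± 2.03 in freshwater stationary and 98.0% ± 0.454 in freshwater exponential libraries. Of the remaining marine stationary signal 12.1% ± 0.251 of the component lay in another antenna gene, DN2252_c0_g4, which held 3.51% ± 0.569 in marine exponential libraries.

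The sum of the component did not switch. It averaged 2056.3 ± 686 CPM in marine stationary, 1510.0 ± 101 CPM in marine exponential, 3927.8 ± 1213.8 CPM in freshwater stationary and 66563.0 ± 5850.0 CPM in freshwater exponential libraries. The high level of DN2252_c0_g1 in freshwater stationary libraries thus came with a sum well below that of freshwater exponential libraries. By the means this sum was above that of both marine groups. Its libraries, from 2541.7 to 4800.8 CPM, overlapped those of marine stationary, from 1655.8 to 2848.1 CPM. On the log2 scale the sum differed by -4.33 ± 0.29 (SE) between stationary and exponential freshwater libraries, whereas DN2252_c0_g1 differed by 10.98 ± 0.72 and DN2252_c0_g2 by -9.03 ± 0.49. Between marine and freshwater stationary libraries the sum differed by -0.86 ± 0.26, against -11.41 ± 0.73 for DN2252_c0_g1 and 3.85 ± 0.39 for DN2252_c0_g2. Before TMM scaling the sum held 0.25% ± 0.0482 (SD) of the library in marine stationary and 0.327% ± 0.104 in freshwater stationary libraries.

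Between marine and freshwater exponential libraries DN2252_c0_g2 and the sum went together, at log2 fold changes of -5.49 ± 0.42 and -5.71 ± 0.31, and DN2252_c0_g1 differed by 0.59 ± 0.57 at levels of a few CPM. Between marine stationary and marine exponential libraries DN2252_c0_g1 differed by -1.02 ± 0.55, DN2252_c0_g2 by 0.31 ± 0.35 and the sum by 0.52 ± 0.26, with overlapping libraries for both copies. The exchange between copies was thus seen where freshwater stationary libraries were on one side of the comparison.

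Component DN546_c0 is larger, with 11 genes of which 6 have a chlorophyll a-b binding name. Its copy DN546_c0_g9, an LHCII type I hit to Dunaliella tertiolecta, stood at 112, 316 and 241 CPM in freshwater stationary libraries. It stood at 0.751, 0.473 and 1.37 CPM in marine stationary, at 0.802, 1.13 and 1.03 CPM in marine exponential and at 0.158, 0.165 and 0.351 CPM in freshwater exponential libraries. Freshwater stationary libraries lay apart above all others, the 2 marine groups overlapped, and freshwater exponential libraries were lowest. The filter on low values asked for 0.959 CPM in 3 libraries, which this copy reached in 3 freshwater stationary libraries, in 2 of 3 libraries of each marine group and in 0 freshwater exponential libraries.

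DN546_c0_g2, with a gene-level best hit to an LHCII type I protein of the green alga Chlamydomonas moewusii, stood at 173, 138 and 301 CPM in marine stationary and at 26.2, 28.7 and 61.8 CPM in marine exponential libraries. It stood at 3.66, 19.0 and 17.9 CPM in freshwater stationary and at 6701.4, 6019.2 and 6582.1 CPM in freshwater exponential libraries. No 2 groups overlapped, and the order from the top was freshwater exponential, marine stationary, marine exponential and freshwater stationary.

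DN546_c0_g10, a shorter sequence with an LHCII type I hit to Chlamydomonas reinhardtii, stood at 68.6, 57.9 and 58.9 CPM in marine stationary and at 36.6, 39.5 and 29.6 CPM in marine exponential libraries. It stood at 3.47, 4.82 and 7.21 CPM in freshwater stationary and at 1373.9, 976 and 883 CPM in freshwater exponential libraries. The order of the groups was the one seen for DN546_c0_g2, again without overlap.

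The shares within DN546_c0 were spread over more genes. DN546_c0_g2 held 27.0% ± 3.36 of the component in marine stationary, 5.41% ± 2.87 in marine exponential, 1.23% ± 0.700 in freshwater stationary and 61.2% ± 2.48 in freshwater exponential libraries. DN546_c0_g9 held 20.7% ± 7.24 in freshwater stationary libraries and at most 0.138% ± 0.0373 in the other groups. DN546_c0_g10 held 8.88% ± 2.73, 4.88% ± 0.997, 0.492% ± 0.144 and 10.2% ± 2.09 in marine stationary, marine exponential, freshwater stationary and freshwater exponential libraries. Among only the 6 antenna genes of the component, DN546_c0_g9 held 55.2% ± 15.8 in freshwater stationary libraries and DN546_c0_g2 65.9% ± 2.40 in freshwater exponential libraries. The short fragment DN546_c0_g6 held 8.28% ± 14.3 of this base in freshwater stationary and 0% in freshwater exponential libraries.

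**Figure D2:**
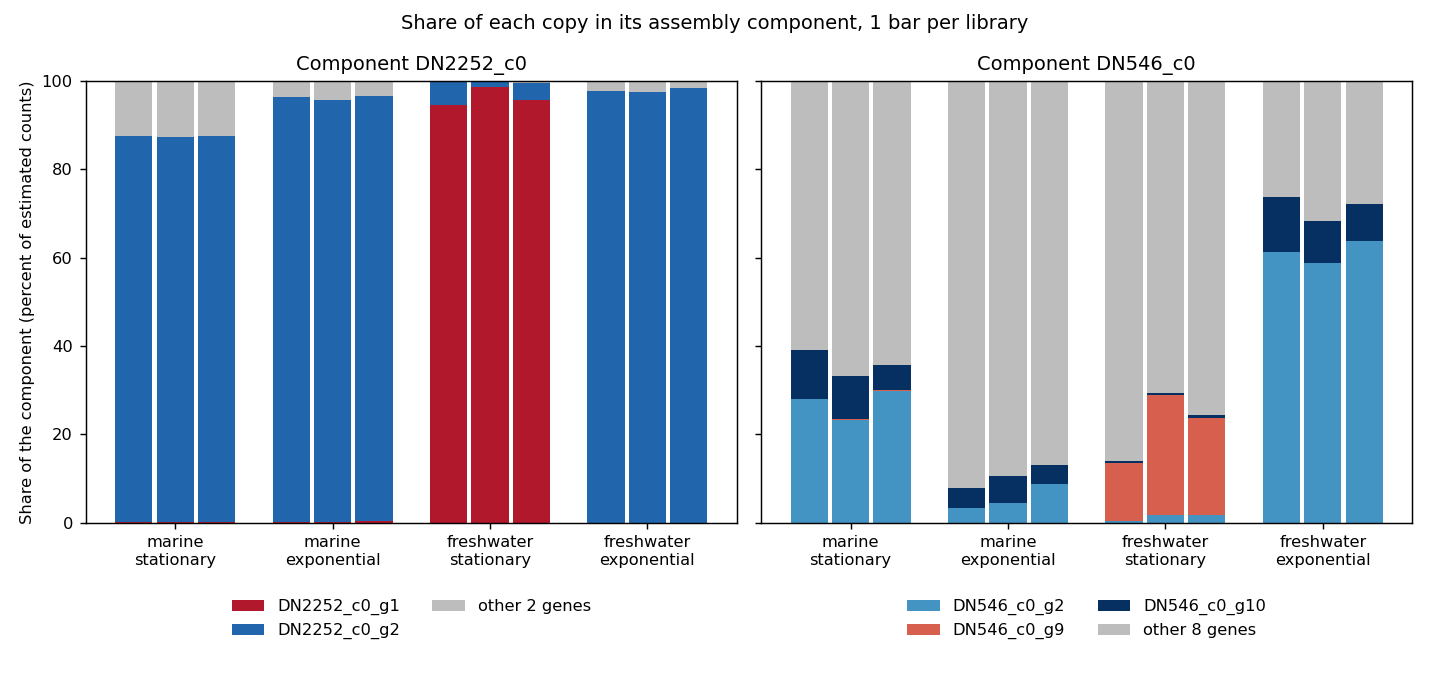
Share of each copy in the estimated counts of its assembly component, in percent, with 1 stacked bar per library in marine stationary, marine exponential, freshwater stationary and freshwater exponential order. DN2252_c0_g1 fills the freshwater stationary bars of its component at 96.3% on average and DN2252_c0_g2 the others, and DN546_c0_g9 shows only in the freshwater stationary bars of its own, at 20.7% on average.

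The fold changes of the 3 copies of DN546_c0 followed the same split. Between stationary and exponential freshwater libraries DN546_c0_g9 differed by 10.16 ± 0.62 on the log2 scale, DN546_c0_g2 by -8.89 ± 0.75, DN546_c0_g10 by -7.70 ± 0.32 and the sum of the component by -3.59 ± 0.21. Between marine and freshwater stationary libraries the values were -8.02 ± 0.53 for DN546_c0_g9, 3.91 ± 0.60 for DN546_c0_g2, 3.57 ± 0.27 for DN546_c0_g10 and -0.41 ± 0.19 for the sum. Before TMM scaling the sum held 0.0902% ± 0.0158 (SD) of the library in marine stationary and 0.0862% ± 0.0139 in freshwater stationary libraries. TMM factors were 1.112 to 1.395 in the former and 0.8627 to 0.8702 in the latter. The direction of this sum thus rested on the scaling. With only the 6 antenna genes summed, the value between marine and freshwater stationary libraries was 0.17 ± 0.24, smaller than its SE, and gives no direction. That sum holds the fragments DN546_c0_g4 and DN546_c0_g6, which are listed at 0 in part of the libraries. They averaged 22.1 and 82.8 CPM in marine stationary and 0 and 24.1 CPM in freshwater stationary libraries.

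Between marine and freshwater exponential libraries DN546_c0_g2 differed by -7.37 ± 0.70, DN546_c0_g10 by -4.94 ± 0.28 and the sum by -4.10 ± 0.22. DN546_c0_g9 differed by 2.35 ± 0.64, at levels of about 1 CPM and below. Between marine stationary and marine exponential libraries DN546_c0_g2 differed by 2.39 ± 0.56 and DN546_c0_g10 by 0.81 ± 0.24, while DN546_c0_g9 differed by -0.20 ± 0.46 and the sum by 0.09 ± 0.19. Both small values changed sign when marine exponential replicate 2 was left out, to 0.02 for DN546_c0_g9 and -0.05 for the sum. Without marine stationary replicate 2 DN546_c0_g9 stood at 0.10, and without marine stationary replicate 3 the sum stood at -0.24.

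**Figure D3:**
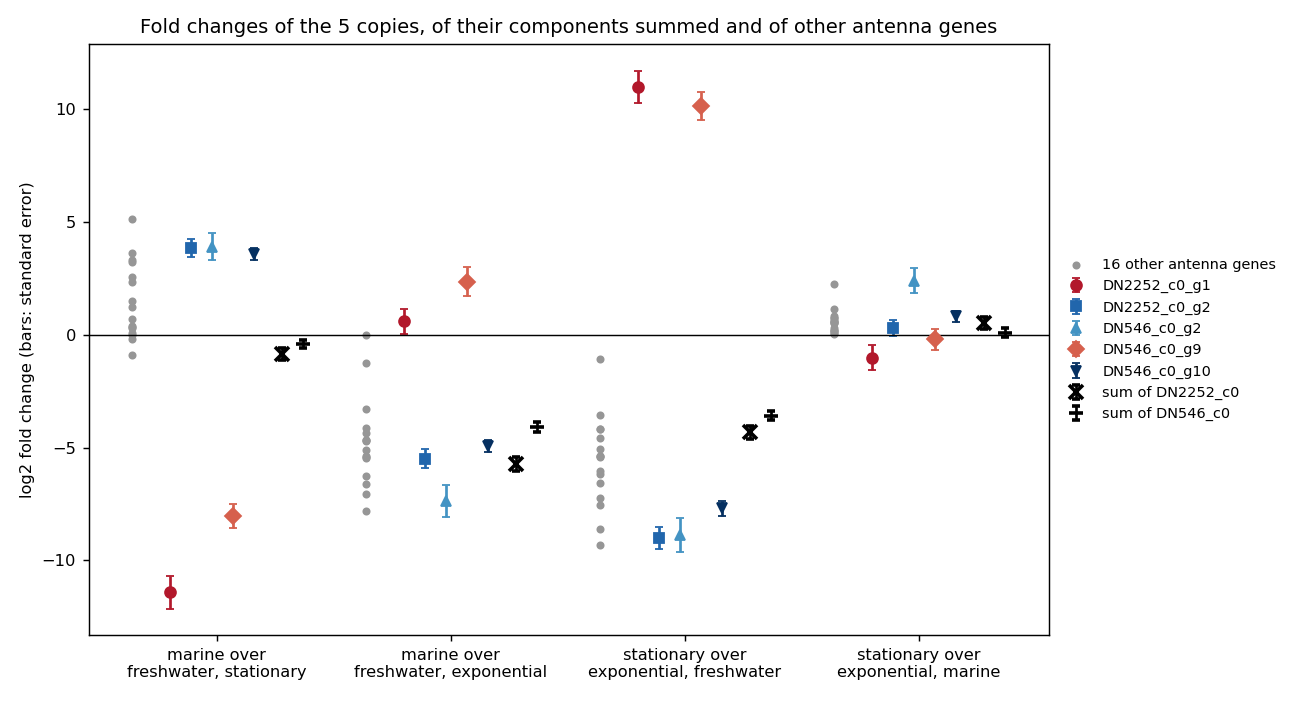
Log2 fold changes with standard errors of the 5 copies, of both component sums and of 16 other antenna genes in 4 comparisons, left to right marine over freshwater in stationary and in exponential phase and stationary over exponential in freshwater and in marine medium. DN2252_c0_g1 and DN546_c0_g9 stand at 10.98 and 10.16 for stationary over exponential freshwater libraries, opposite to the sums at -4.33 and -3.59; the grey points leave out antenna genes with a group listed at 0.

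The deposited annotation shows what the copies share beyond their name. All 5 have a transcript with the chlorophyll a-b binding protein domain. DN2252_c0_g1 was assembled as 5 transcripts and DN2252_c0_g2 as 6, and every one of them matched an antenna protein of a green alga or land plant. Transcripts of DN2252_c0_g1 matched residues 33 to 277 of those proteins and transcripts of DN2252_c0_g2 residues 1 to 166, counted in each matched protein. The gene DN2252_c0_g4 matched residues 212 to 273, beyond the stretch of DN2252_c0_g2. Its log2 level went with that of DN2252_c0_g2 at Pearson's r = 0.94 over 12 libraries, and that of DN2252_c0_g1 with DN2252_c0_g2 at r = -0.73, as descriptions of points that share groups and libraries.

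In DN546_c0 the single transcript of DN546_c0_g9 matched residues 26 to 220 of an LHCII protein at 73.7% identity, that of DN546_c0_g10 residues 52 to 202 at 74.8%, and the longer of 2 transcripts of DN546_c0_g2 residues 69 to 245 at 71.9%. The 3 copies thus match overlapping stretches. DN546_c0_g9 is 3220 bases long and only 588 of them, 18.3%, lie in the match, against 441 of 443 bases, 99.5%, in DN546_c0_g10. On the opposite strand DN546_c0_g9 holds a second predicted reading frame of 638 codons with a MYND zinc finger, a domain of protein-protein contacts. One transcript of DN2252_c0_g1 holds a second frame of 251 codons with no hit, on the same strand as its antenna frame and beyond it. The level of each gene covers its whole sequence, so signal from the antenna frame and from the second frame cannot be told apart in these 2 genes. The library kit does not mark strand, so the opposite strands in DN546_c0_g9 do not separate its 2 frames either.

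**Figure D4:**
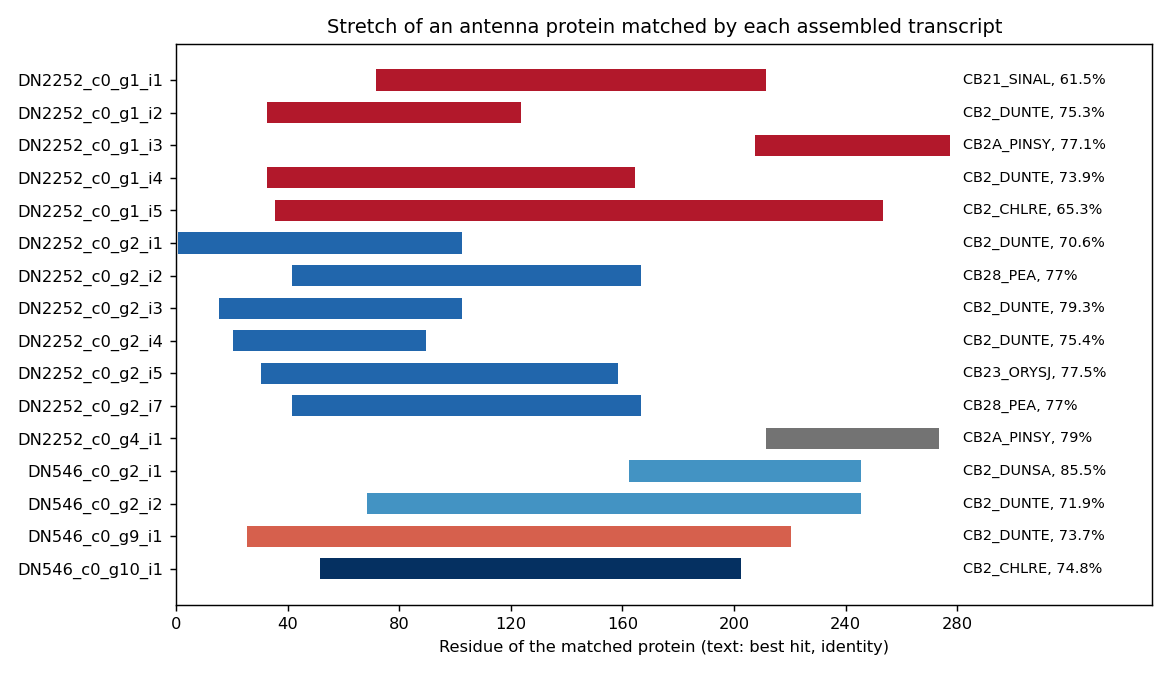
Stretch of the best-matching antenna protein covered by each assembled transcript of the 5 copies and of DN2252_c0_g4, in residues of that protein, with the matched entry and its identity. DN2252_c0_g2 reaches residue 166 at most and DN2252_c0_g4 starts at residue 212. One transcript of DN2252_c0_g1 matches residues 208 to 277, at the same end as DN2252_c0_g4, and its others start at residues 33 to 72. The 3 DN546_c0 copies match between residues 26 and 245.

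In DN2252_c0 both other genes had the group order of DN2252_c0_g2 by their means, highest in freshwater exponential, then marine stationary, marine exponential and freshwater stationary libraries. DN2252_c0_g4 averaged 249 ± 83.9 CPM in marine stationary, 52.7 ± 4.99 in marine exponential, 6.91 ± 6.86 in freshwater stationary and 1329.5 ± 239 CPM in freshwater exponential libraries. It rose in marine over freshwater medium in stationary phase (log2 5.15 ± 0.62, FDR 0.000225, edgeR) and fell in exponential phase (-4.66 ± 0.59, FDR 0.000306). DN2252_c0_g3, with no hit, stayed under 20 CPM in every library and was also called higher in marine stationary libraries (2.51 ± 0.68, FDR 0.0236). DN546_c0_g3, placed in the KEGG group of photosystem I antenna protein 2, averaged 66.3 ± 13.1, 54.1 ± 2.10, 122 ± 28.2 and 2253.2 ± 119 CPM in the 4 groups in the same order. It fell in stationary over exponential freshwater libraries (-4.20 ± 0.20, FDR 1.12e-06), as 2 of the 3 copies did in description, and fell slightly in marine over freshwater stationary libraries (-0.88 ± 0.18, FDR 0.00547), where those copies were higher.

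Genes of DN546_c0 without an antenna name differed less. DN546_c0_g8, a hit to PHOTOSYSTEM I ASSEMBLY 2 with an antenna-like reading frame on its other strand, fell in marine medium in stationary (-2.63 ± 0.44, FDR 0.00187) and in exponential phase (-2.79 ± 0.44, FDR 0.00124). DN546_c0_g5, a HEAT repeat protein, rose in marine medium in exponential phase (1.69 ± 0.32, FDR 0.00423). DN546_c0_g7 and DN546_c0_g1, without a hit, rose in stationary over exponential freshwater libraries (1.49 ± 0.19, FDR 0.000613, and 1.01 ± 0.20, FDR 0.00818). Both fell in marine over freshwater stationary libraries (-1.34 ± 0.19, FDR 0.000704, and -0.78 ± 0.20, FDR 0.0183). Their log2 levels went with that of DN546_c0_g9 at r = 0.95 and 0.91, against 0.24 for DN546_c0_g8 and 0.03 for DN546_c0_g5. DN546_c0_g4 and DN546_c0_g6, antenna fragments of 212 and 214 bases, were above 0 in 4 and 5 of 12 libraries and listed at 0 in the others, and no fold is given. DN546_c0_g4 stood at 68.1 to 114 CPM in marine exponential libraries, and both were listed at 0 in every freshwater exponential library. DN546_c0_g11, above 0 in 1 library, did not pass the filter on low values.

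Set against the whole antenna family, the 5 copies held a larger part of it in freshwater stationary libraries. The 27 antenna genes summed to 3832.3 ± 1030.9 CPM in marine stationary, 2739.3 ± 207 in marine exponential, 4827.8 ± 1399.0 in freshwater stationary and 120126.0 ± 8355.0 CPM in freshwater exponential libraries. The 5 copies made up 53.4% ± 3.08, 55.8% ± 1.93, 85.6% ± 3.59 and 60.5% ± 1.51 of that sum in the same order. DN2252_c0_g1 alone held 78.0% ± 4.09 of that sum in freshwater stationary libraries, and DN2252_c0_g2 held 54.2% ± 1.65 of it in freshwater exponential libraries. These are levels of whole genes, which in DN2252_c0_g1 and DN546_c0_g9 also cover a second reading frame. The other 22 antenna genes summed to 667 ± 155 CPM in freshwater stationary libraries, their lowest group, against 1765.9 ± 346 CPM in marine stationary libraries.

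Of the 22 other antenna genes 20 passed the filter, and the tests below are on these. They were taken by name, and 4 of them belong to the 2 components, share sequence with the copies and enter the component sums. In marine over freshwater exponential libraries 15 fell and 0 rose (edgeR, FDR under 0.05), against 10.8% lower and 9.30% higher of all 31491 tested genes. In stationary over exponential freshwater libraries 16 fell and 0 rose, against 4.42% lower and 6.46% higher of all genes. Without adjustment, at p under 0.05, 1 rose in the first comparison and 0 in the second, and DESeq2 called 1 higher in each. In stationary over exponential freshwater libraries edgeR with all 12 libraries thus called none of these 20 genes higher, the direction of DN2252_c0_g1 and DN546_c0_g9. Among them, DN546_c0_g6, DN12175_c0_g1 and DN1738_c1_g1 were listed at 0 in freshwater exponential libraries. They averaged 24.1, 1.61 and 0.487 CPM in freshwater stationary libraries and were not called (FDR 0.231, 0.244 and 0.214, edgeR). Without marine stationary replicate 2, 1 gene was called higher in marine over freshwater exponential libraries.

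In marine over freshwater stationary libraries 8 of the 20 rose and 1, DN546_c0_g3, fell, against 9.02% higher and 17.3% lower of all genes. Between marine stationary and marine exponential libraries edgeR called 0 in either direction, where 0.311% of all genes were higher and 1.32% lower. At an unadjusted p under 0.05 there 10 were higher and 0 lower, DESeq2 called 9 higher, and limma called 2 higher, so the result turned on the tool. The salt effect differed between the phases for 15 of the 20, all higher in stationary phase, against 2.38% higher and 4.79% lower of all genes. Over all genes that split, 33.3% higher, became 45.8% higher with DESeq2 size factors.

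Of the 20, 16 were above 0 in every group. Their median log2 fold change was -4.92 in marine over freshwater exponential and -5.39 in stationary over exponential freshwater libraries, against 0.12 and 0.07 over 14524 tested genes above 0 in every group. In marine over freshwater stationary libraries it was 0.95, against 0.16. By group means 15 of the 16 were highest in freshwater exponential libraries, 9 were lowest in freshwater stationary and 7 in marine exponential libraries, and 0 were highest in freshwater stationary libraries.

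The 6 antenna genes with the highest mean log2 level outside the 2 components are given in values. CP29 (DN297_c0_g2), a minor antenna that links LHCII to photosystem II, averaged 391 ± 24.9 CPM in marine stationary, 273 ± 9.65 in marine exponential, 65.4 ± 11.2 in freshwater stationary and 2684.0 ± 328 CPM in freshwater exponential libraries. It fell in stationary over exponential freshwater libraries (-5.36 ± 0.17, FDR 1.14e-07) and rose in marine over freshwater stationary libraries (2.58 ± 0.15, FDR 2.55e-06). DN10362_c0_g1 averaged 152 ± 103, 85.9 ± 19.8, 30.5 ± 17.2 and 19585.2 ± 2014.1 CPM in the same order. It fell in stationary over exponential freshwater libraries (-9.32 ± 0.67, FDR 1.56e-05) and rose in marine over freshwater stationary libraries (2.32 ± 0.49, FDR 0.00767).

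The others are genes of component DN1819. DN1819_c0_g2 and DN1819_c0_g7 likewise rose in marine over freshwater stationary libraries (3.31 ± 0.47, FDR 0.000666, and 1.49 ± 0.16, FDR 0.0001). DN1819_c1_g4 and DN1819_c1_g3 did not pass the test there (0.37 ± 0.35, FDR 0.48, and 0.35 ± 0.15, FDR 0.107). These genes all fell in stationary over exponential freshwater libraries, by log2 values of -8.62 to -4.20, and none of them was called between the marine groups.

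Of 10 tested nuclear photosystem subunits 9 fell and 0 rose in marine over freshwater exponential libraries, where 10.8% of all genes fell and 9.30% rose. In stationary over exponential freshwater libraries 9 fell and 0 rose, against 4.42% and 6.46% of all genes. In marine over freshwater stationary libraries 5 rose and 0 fell, against 9.02% and 17.3% of all genes. At an unadjusted p under 0.05 the opposite direction had 1, 0 and 0 genes, and DESeq2 called 1, 0 and 0. Between marine stationary and marine exponential libraries 2 rose and 0 fell, against 0.311% and 1.32% of all genes, and the count of 2 ranged from 0 to 3 with 1 library left out, 0 without any 1 library of either marine group or of freshwater exponential. PSBR (DN2727_c0_g1), a small subunit of photosystem II, averaged 428 ± 62.8 CPM in freshwater stationary and 3784.3 ± 458 CPM in freshwater exponential libraries (log2 -3.14 ± 0.15, FDR 1.38e-06).

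Of 30 tested genes of chlorophyll synthesis 1 rose and 12 fell in stationary over exponential freshwater libraries, against 6.46% and 4.42% of all genes. With 1 library left out 7 to 12 fell, with 7 without marine stationary replicate 1 or 2, freshwater stationary replicate 1 or freshwater exponential replicate 1, and with shared-stem libraries summed 5 fell. In marine over freshwater stationary libraries 12 rose and 5 fell, against 9.02% and 17.3% of all genes, so the share that fell was near that of all genes. These counts were 7 to 11 higher and 1 to 2 lower when any 1 of the 12 libraries was left out, and 1 and 0 when libraries with a shared stem were summed. Coproporphyrinogen-III oxidase (DN1300_c0_g1), an enzyme of the path to heme and chlorophyll, averaged 104 ± 30.4 CPM in freshwater stationary and 318 ± 52.0 CPM in freshwater exponential libraries (-1.62 ± 0.21, FDR 0.000653). All 4 genes for the delivery of antenna proteins to the thylakoid rose in marine over freshwater stationary libraries, where 9.02% of all genes rose, among them chloroplast FtsY (DN4735_c0_g1), the receptor of the chloroplast signal recognition particle (0.78 ± 0.25, FDR 0.0406). Left-out libraries brought that count to between 2 and 4, the 4 being without marine stationary replicate 3, and summing libraries with a shared stem brought it to 0.

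Of 4 tested genes of photoprotection and state transitions 3 fell and 1 rose in marine over freshwater stationary libraries, against 17.3% and 9.02% of all genes. In marine over freshwater exponential libraries 1 fell and 2 rose, against 10.8% and 9.30% of all genes. Zeaxanthin epoxidase (DN1658_c0_g1), which turns zeaxanthin back to violaxanthin, averaged 325 ± 115 CPM in marine stationary and 985 ± 27.0 CPM in freshwater stationary libraries (-1.60 ± 0.21, FDR 0.000419).

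For each copy, the 3 genes of other components with the highest Pearson's r of log2 levels over the 12 libraries were taken. The search covered 3076 or 3073 genes that had a product name and averaged 4 or more on the log2 CPM scale. This r does not depend on the level or on the size of the change. For DN2252_c0_g1 they were an O-glucosyltransferase (DN812_c0_g1, r = 0.979), a JmjC domain protein (DN325_c0_g1, r = 0.976) and a dihydrodipicolinate reductase homologue (DN152_c0_g1, r = 0.975). The JmjC domain protein averaged 25.6 CPM in marine stationary, 21.0 in marine exponential, 449 in freshwater stationary and 19.5 CPM in freshwater exponential libraries. For DN546_c0_g9 they were a tubulin polyglutamylase (DN106_c0_g1, r = 0.983), a Cys-Gly dipeptidase (DN1150_c1_g1, r = 0.982) and an N-acetylglucosaminyltransferase (DN477_c0_g1, r = 0.970). DN477_c0_g1 averaged 28.4 CPM in marine stationary, 27.9 in marine exponential, 39.4 in freshwater stationary and 25.4 CPM in freshwater exponential libraries. None of these 6 has an antenna name, and the levels of DN2252_c0_g1 and DN546_c0_g9 themselves went together at r = 0.96.

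The genes with the highest r for the other 3 copies were mainly antenna and photosystem genes. They were DN1819_c0_g2 (r = 0.997), DN10362_c0_g2 (r = 0.992) and a polyketide hydroxylase homologue (DN782_c0_g1, r = 0.992) for DN2252_c0_g2. For DN546_c0_g10 they were DN10362_c0_g2 (r = 0.997), CP29 (r = 0.997) and a photosystem I subunit (DN4375_c0_g1, r = 0.992). For DN546_c0_g2 they were chloroplast malate dehydrogenase (DN1577_c0_g5, r = 0.980), the antenna gene DN1819_c0_g7 (r = 0.976) and an ABC transporter (DN0_c0_g1, r = 0.969).

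In the authors' deposited table, made from the same libraries with another normalisation, DN2252_c0_g1 had mean signals of 11.8 in marine stationary, 27.6 in marine exponential, 43977.9 in freshwater stationary and 19.7 in freshwater exponential cultures. The authors' deposited table gave log2 fold changes of marine over freshwater in stationary phase of -11.84 for DN2252_c0_g1, 3.45 for DN2252_c0_g2, 3.51 for DN546_c0_g2, -8.44 for DN546_c0_g9 and 3.17 for DN546_c0_g10. Over the 5 copies and the 3 salt comparisons of the authors' deposited table, all 15 values had the sign found here and differed by at most 0.42 on the log2 scale.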

How the data were processed

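The authors deposited a matrix of estimated counts per assembled gene, made per the submitters' processing notes with Bowtie and RSEM 1.3.2 on a Trinity assembly. All of its values below 50 were whole multiples of 0.01 TPM of the library total, so these estimated counts are already per length. They give no counting intervals or floors. The authors' deposited table gives a mean signal per group and log2 fold changes made with DESeq2 1.20.0. Per the file headers, annotation tables give the length of 1 sequence per gene, the E-value and mean similarity in percent of its best hit, and reading frames per transcript.

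Values were rounded, filtered with filterByExpr by group, scaled with TMM factors and fitted with 1 mean per group over 12 libraries in edgeR 4.0.16 under R 4.3.3. Quasi-likelihood p-values were corrected over 31491 genes (Benjamini-Hochberg), with calls at an FDR under 0.05. The plan took the values for read counts. Since they are scaled TPM values, limma 3.58.1 with a mean-variance trend on log2 CPM (prior count 2) was added, as was the share after multiplying by length, both after seeing the data. DESeq2 1.42.0 was another test. Components were summed before fitting, over 48381 components of which 27671 passed the filter. SE is the log2 fold change divided by the root of the F statistic. The fits were also run on simulated read counts. The deposited values are not read counts, so that run does not check the fits for values of this kind. Drawing used matplotlib 3.10.9.

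The 5 copies and the gene lists were chosen with earlier results of these data known. Names come from best hits with E no higher than 1e-10. Genes named in the text are the copies, all genes of both components that passed the filter and the 6 other antenna genes with the highest mean log2 CPM. Also named are the called member with the highest mean from each related list and the 3 genes with the highest r per copy. The series describes the libraries of a group as biological replicates. Sequences and genomic positions were not used here.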

Additional observations from a re-analysis of the deposited data

Results flagged for a closer look

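Several genes had salt effects, marine over freshwater, that differed between stationary and exponential phase. For 4 of the 5 copies every marine library lay on one side of every freshwater library in stationary phase and on the other side in exponential phase. The share of all tested genes with such a separation is not given, so the count is not a result about the copies. For DN546_c0_g9 the exponential side rests on 0.802 to 1.13 CPM in marine against 0.158 to 0.351 CPM in freshwater libraries. The difference between the salt effects was not tested because the copies were chosen on these values. As log2 values of the stationary minus the exponential effect, it was 9.34 for DN2252_c0_g2, 11.28 for DN546_c0_g2, 8.51 for DN546_c0_g10 and -10.36 for DN546_c0_g9.

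Other genes were flagged because the edgeR test of this difference passed an FDR of 0.05. In the 2 components the differences were 4.03 for DN2252_c0_g3, 9.81 for DN2252_c0_g4, 4.50 for DN546_c0_g3 and -1.75 for DN546_c0_g7. Among other antenna genes they were 10.15 for DN10362_c0_g1, 8.79 for DN1819_c0_g2, 5.62 for DN1819_c0_g7, 4.70 for DN1819_c1_g3, 5.48 for DN1819_c1_g4 and 5.88 for CP29 (DN297_c0_g2). PSBR (DN2727_c0_g1) had 3.10 and zeaxanthin epoxidase (DN1658_c0_g1) -1.75. Groups of 3 libraries were not screened for single outlying samples.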

How the results depend on the processing

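Of the values for the copies, the component sums and the other antenna genes, all 45 fitted with a replicate block kept their direction and call, and so did all 45 without the filter on low values. With the replicate block DN2252_c0_g1 stood at 10.97 in stationary over exponential freshwater libraries. The numbers did not pair the samples, with correlations of same-numbered deviations from -0.16 to 0.19, of which 2 of 18 were above 0.1.

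In this paragraph the 5 values of each set are in the order marine over freshwater exponential, marine over freshwater stationary, stationary over exponential freshwater, stationary over exponential marine, and the difference between the salt effects. The sum of only the antenna genes of DN2252_c0 gave -5.47, -0.94, -4.08, 0.44 and 4.53, opposite in sign to DN2252_c0_g1 except in the second and to DN2252_c0_g2 in the second. For DN546_c0 it gave -5.16, 0.17, -4.65, 0.68 and 5.33, opposite in sign to DN546_c0_g9 throughout, though 0.17 had an SE of 0.24. For all genes of DN2252_c0 the first value was -5.54 with DESeq2 or its size factors, -5.44 in the 6 libraries alone and -5.35 with shared-stem libraries summed. For DN546_c0 it was -3.92, -3.83 and -3.74 under the same settings. The third value of DN546_c0 was -3.38 with DESeq2 or its size factors, and the fourth was -0.04 with shared-stem libraries summed.

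Shares depended most on length and on the genes counted. Multiplying by sequence length, added after seeing the data, gave 0.244% for DN2252_c0_g1 in marine exponential libraries. It gave 95.8%, 98.6% and 99.4% for DN2252_c0_g2 in marine stationary, marine exponential and freshwater exponential libraries. In the order marine stationary, marine exponential, freshwater stationary and freshwater exponential it gave 10.9%, 1.59%, 0.326% and 49.7% for DN546_c0_g2 and 1.65%, 0.64%, 0.058% and 3.69% for DN546_c0_g10. DN546_c0_g9 had 0.146% in marine stationary and 0.00559% in freshwater exponential libraries. The planned division by length divides these values a second time. It gave 67.8%, 88.3% and 93.6% for DN2252_c0_g2 in marine stationary, marine exponential and freshwater exponential libraries, and 21.3% and 3.42% for DN546_c0_g2 in marine and freshwater stationary libraries. DN546_c0_g9 then had 0.028%, 0.0389% and 0.000651% in marine stationary, marine exponential and freshwater exponential libraries, and DN546_c0_g10 had 14.7%, 9.71%, 2.8% and 22.2% in the 4 groups. Of the antenna genes alone DN2252_c0_g2 held 87.7% in marine stationary libraries and DN546_c0_g2 held 45.3%, 15.2%, 3.24% and 65.9% in the 4 groups. On that base DN546_c0_g9 held 0.19%, 0.4% and 55.2%, and DN546_c0_g10 14.4%, 13.9% and 1.33%, in marine stationary, marine exponential and freshwater stationary libraries. That base holds the short fragments DN546_c0_g4 and DN546_c0_g6.

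Among other antenna genes 1 was called higher in marine over freshwater exponential libraries by DESeq2, by limma and in the 6 libraries alone. With shared-stem libraries summed 0 were lower in marine over freshwater stationary libraries. DESeq2 called 1 higher in stationary over exponential freshwater libraries and 1 with a lower salt effect in stationary phase. In stationary over exponential marine libraries 4 were higher in the 6 libraries alone, 9 by DESeq2 and 2 by limma.

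With 1 library left out in turn, values ranged as follows in marine over freshwater exponential libraries. DN2252_c0_g1 ranged from 0.04 to 0.59, DN2252_c0_g2 from -5.82 to -5.49, DN546_c0_g2 from -8.12 to -7.37, DN546_c0_g9 from 1.88 to 2.51 and DN546_c0_g10 from -5.33 to -4.93. The sums ranged from -5.80 to -5.43 for DN2252_c0 and from -4.15 to -3.82 for DN546_c0. In marine over freshwater stationary libraries DN2252_c0_g1 ranged from -12.12 to -10.96 and DN546_c0_g10 from 3.36 to 4.00. In stationary over exponential freshwater libraries DN2252_c0_g2 ranged from -9.66 to -8.93, DN546_c0_g10 from -8.29 to -7.48 and the sum of DN546_c0 from -3.69 to -3.33. In stationary over exponential marine libraries DN2252_c0_g1 ranged from -1.73 to -0.57, DN546_c0_g9 from -0.67 to 0.10, DN546_c0_g10 from 0.78 to 1.01, and the sums from 0.16 to 0.57 for DN2252_c0 and from -0.24 to 0.15 for DN546_c0. The difference between salt effects ranged from -12.72 to -11.37 for DN2252_c0_g1, from 9.02 to 10.06 for DN2252_c0_g2, from 10.83 to 12.08 for DN546_c0_g2, from -10.83 to -9.73 for DN546_c0_g9, from 8.29 to 9.20 for DN546_c0_g10, and from 4.46 to 5.00 and 3.32 to 3.78 for the sums of DN2252_c0 and DN546_c0. Counts of other antenna genes ranged from 0 to 1 higher in marine over freshwater exponential, from 1 to 2 lower in marine over freshwater stationary, and from 0 to 2 higher and 0 to 1 lower in stationary over exponential marine libraries. Moves of over 1.5 times in fold came for DN2252_c0_g1 without marine stationary replicate 2 (-12.12, -1.73 and -12.72) and marine exponential replicate 3 (-11.37), and for DN2252_c0_g2 (-9.66 and 10.06) and DN546_c0_g10 (-8.29 and 9.20) without freshwater stationary replicate 3. They came for DN546_c0_g2 without marine exponential replicate 3 (-8.12 and 12.08), freshwater stationary replicate 2 (11.89) and freshwater stationary replicate 3 (11.90), and for DN546_c0_g9 without freshwater stationary replicate 2 (-9.73). The DN546_c0_g9 and DN546_c0 sign changes came without marine stationary replicate 2 (0.10), marine exponential replicate 2 (0.02 and -0.05) and marine stationary replicate 3 (-0.24). The cause of these changes was not tested, and the reads behind values near 1 CPM are unknown.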
